A study of Mus musculus with 2 samples.

Results

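The genes described here encode 36 enzymes of mitochondrial oxidation. Of these, 18 belong to the pyruvate dehydrogenase complex and the tricarboxylic acid (TCA) cycle, and 18 to fatty acid activation, the carnitine shuttle, beta-oxidation and the electron transfer flavoprotein. They were picked by symbol from the 55450 genes of the deposited matrices, and every symbol was found. Their RNA was counted in single brain cells of C57BL/6 mice at day 3 of microglial repopulation, sorted as CD11b high and CD45 low. One library came from Hk2 fl/fl mice, which carried the floxed allele of hexokinase 2 and no recombinase. The other came from conditional knockouts (cKO), which carried the same floxed allele with Cx3cr1CreER, a tamoxifen-activated Cre under the promoter of a microglial and monocytic receptor gene, so that monocytes and border macrophages could recombine too. The protocol gives 100 µg of tamoxifen on 2 consecutive days in newborn mice (postnatal days 1 and 2), or at other times that it does not list. Whether the fl/fl mice received tamoxifen, how many animals were pooled, which Hk2 exons were floxed, the animals' age and how microglia were depleted are not given in the sources used here. Hk2 lies outside the 36 genes; it begins glycolysis by phosphorylating glucose, upstream of the pyruvate that the dehydrogenase complex takes up.

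Pyruvate enters the mitochondrion and is turned into acetyl-CoA by the pyruvate dehydrogenase complex. Fatty acids reach the same acetyl-CoA by another path: they are activated to acyl-CoA by synthetases, carried across the inner membrane by the carnitine shuttle and shortened step by step in beta-oxidation, whose first electrons leave through the electron transfer flavoprotein. The TCA cycle then oxidises acetyl-CoA and passes electrons to the respiratory chain, one of its enzymes, succinate dehydrogenase, being itself part of that chain. Microglia are the resident macrophages of the brain, and in macrophages the balance of glycolysis, TCA cycle and fatty acid oxidation is known to shift with activation state.

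The fl/fl library held 37476201 unique molecular identifiers (UMIs, single counted RNA molecules) over 3089 barcodes, and the cKO library 32896996 over 2607. After filters, 2824 and 2300 cells were kept, and 2 kept barcodes occurred in both libraries. Clusters were made without the 36 genes and 69 further genes of the same pathways. For a microglia-like cluster, 16 microglial markers had to be seen, on average, in at least 80% of the cells. Fewer than 3 markers of any other class could be raised there, and none could outnumber microglial markers among its 10 leading genes. The microglia-like clusters held 87.5% (2472) and 87.3% (2007) of the kept cells in the fl/fl and the cKO library. Hk2 was at 166 CPM (counts per 1000000 UMIs of the summed cells) in fl/fl and 43.6 CPM in cKO microglia-like cells, a log2 ratio of -1.91. Where the 3' tag lies relative to the deleted exons is not known here, so this value does not measure recombination. The driver's own gene Cx3cr1 was at 1301 and 675 CPM. Free RNA was present: a neutrophil transcript, S100a8, was seen in 15.3% and 13.8% of microglia-like cells. With 1 library per genotype there is no spread between animals and no test, and the intervals below are 95% intervals of counting error alone.

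Between the genotypes, the 36 genes were nearly level. Each gene is given as CPM with an exact Poisson interval and as the log2 ratio of cKO over fl/fl with 1 CPM added, with the exact interval of the ratio of counts in brackets. A gene was counted as measured at a mean of at least 10 CPM, which 35 of the 36 passed; Cpt2, the inner-membrane carnitine palmitoyltransferase, was below it at 8.66 and 7.87 CPM. The median log2 ratio of the 35 was -0.06, beside -0.04 for all 7812 measured genes. Of the 35, 26 were lower in the cKO library by any amount, against 61.6% of all measured genes. A gene was called apart where the higher level exceeded the lower one by at least 25%. None of the 35 was, while 2.53% of all measured genes were apart and lower in the cKO library and 3.38% apart and higher. Poisson intervals of the 2 libraries were apart for Idh3g and Acsl1, which were lower (16.6% of all measured genes were so), and for Sdhb and Hadhb, which were higher (10.6%). Together the 36 genes took 0.233% of all UMIs (0.232 to 0.235) in fl/fl and 0.228% (0.226 to 0.230) in cKO microglia-like cells, a log2 ratio of -0.03. Levels are compared between genes as CPM, since a 3' count carries no length factor, although capture may still differ between transcripts.

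**Figure D1:**
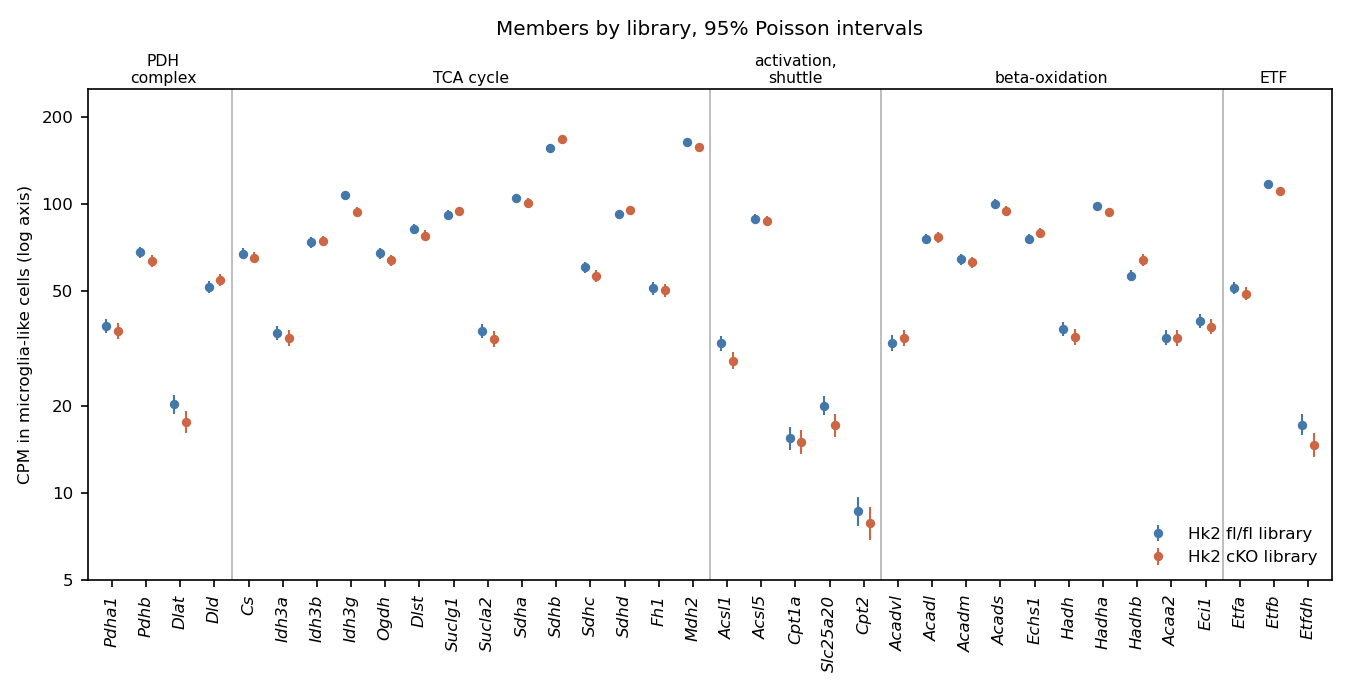
CPM (log axis) of each of the 36 genes in microglia-like cells of the Hk2 fl/fl and the Hk2 cKO library, ordered by role; points are CPM of the summed cells and bars exact 95% Poisson intervals. The genes run from 7.87 CPM (Cpt2) to 168 CPM (Sdhb), and the 2 libraries lie close together at nearly every gene.

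In the pyruvate dehydrogenase complex, 3 of 4 genes were lower in the cKO library, beside 61.6% of all measured genes. Pdhb, the beta subunit of the first enzyme and the most abundant of the 4, was at 68.0 CPM (65.2 to 70.8) in fl/fl cells and 63.5 CPM (60.6 to 66.5) in cKO cells. Dlat, the acetyl-transferring second enzyme, was at 20.3 CPM (18.7 to 21.9) in fl/fl cells and 17.6 CPM (16.1 to 19.2) in cKO cells, a log2 ratio of -0.19 (-0.37 to -0.03). The alpha subunit Pdha1 was at 37.8 and 36.4 CPM. Dld, the lipoamide dehydrogenase that this complex shares with the 2-oxoglutarate dehydrogenase of the TCA cycle, was the gene of the complex that was higher, at 51.5 CPM (49.1 to 54.0) in fl/fl cells and 54.6 CPM (51.9 to 57.4) in cKO cells, a log2 ratio of 0.08 (-0.02 to 0.19), and it was lower in 1 of 10 microglia-like clusters. The Poisson intervals of the libraries overlapped for all 4.

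In the TCA cycle, 10 of 14 genes were lower in the cKO library, again beside 61.6% of all measured genes. The abundant ones were Mdh2, the mitochondrial malate dehydrogenase, at 164 CPM (159 to 168) in fl/fl cells and 157 CPM (153 to 162) in cKO cells, and Sdhb, the iron-sulphur subunit of succinate dehydrogenase, at 156 CPM (152 to 161) in fl/fl cells and 168 CPM (163 to 173) in cKO cells. Sdhb had the highest ratio of the cycle, 0.10 (0.04 to 0.16), yet was lower in 5 of the 10 clusters. The lowest ratio belonged to Idh3g, a regulatory subunit of the NAD-dependent isocitrate dehydrogenase, at 107 CPM (104 to 111) in fl/fl cells and 93.7 CPM (90.2 to 97.4) in cKO cells, a log2 ratio of -0.19 (-0.27 to -0.12). Idh3g was lower in all 10 clusters, with ratios from -0.32 to -0.01. The catalytic subunit of the same enzyme, Idh3a, was at 35.8 and 34.4 CPM and the other regulatory subunit, Idh3b, at 73.5 and 74.4 CPM. The cycle's remaining genes, from citrate synthase (Cs) through the 2-oxoglutarate dehydrogenase enzymes (Ogdh, Dlst), the succinyl-CoA ligase (Suclg1, Sucla2) and the other succinate dehydrogenase subunits (Sdha, Sdhc, Sdhd) to fumarase (Fh1), had log2 ratios between -0.09 (Sdhc) and 0.05 (Sdhd).

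In fatty acid activation and the carnitine shuttle, all 4 measured genes were lower in the cKO library, with a median log2 ratio of -0.12. The background leaned the same way, with 61.6% of all measured genes lower and a median of -0.04. With only 4 genes, the shared direction alone does not set this step apart. The long-chain acyl-CoA synthetase Acsl5 was the abundant one, at 88.6 CPM (85.4 to 91.9) in fl/fl cells and 87.4 CPM (84.0 to 90.9) in cKO cells. Its paralogue Acsl1 was at 33.0 CPM (31.0 to 35.0) in fl/fl cells and 28.7 CPM (26.7 to 30.7) in cKO cells, a log2 ratio of -0.19 (-0.33 to -0.07), and was lower in 8 of 10 clusters. The carnitine-acylcarnitine carrier Slc25a20 was at 20.1 CPM (18.6 to 21.7) in fl/fl cells and 17.1 CPM (15.7 to 18.7) in cKO cells, a log2 ratio of -0.22 (-0.40 to -0.06). Cpt1a, the outer-membrane carnitine palmitoyltransferase that sets the entry of long-chain fatty acids, was at 15.5 and 15.03 CPM. The 3 electron transfer flavoprotein genes were lower too, beside the same 61.6%. Etfb, the beta subunit, was at 117 and 111 CPM and Etfa, the alpha subunit, at 51.1 and 48.9 CPM. Etfdh, the ubiquinone reductase, was at 17.3 and 14.7 CPM, a log2 ratio of -0.22 (-0.42 to -0.05). Among the genes of this paragraph, Acsl1 alone had Poisson intervals that were apart between the libraries.

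In the beta-oxidation spiral, 6 of 10 genes were lower in the cKO library and the median was -0.02, beside 61.6% and -0.04 for all measured genes. Acads, the short-chain acyl-CoA dehydrogenase, was the most abundant at 99.99 CPM (96.6 to 103) in fl/fl cells and 94.8 CPM (91.2 to 98.4) in cKO cells. Hadh, the short-chain hydroxyacyl-CoA dehydrogenase, had the lowest ratio, at 37.0 and 34.5 CPM, a log2 ratio of -0.10 (-0.22 to 0.02). Hadhb had the highest ratio of all 36 genes, 0.18 (0.09 to 0.28), and was lower in 2 of 10 clusters. The other acyl-CoA dehydrogenases (Acadvl, Acadl, Acadm), the enoyl-CoA hydratase Echs1, the thiolase Acaa2 and the enoyl-CoA isomerase Eci1 had log2 ratios from -0.06 (Eci1) to 0.07 (Echs1).

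Hadha and Hadhb encode the alpha and beta subunits of 1 enzyme, the mitochondrial trifunctional protein, which carries out the last steps of long-chain beta-oxidation. In the GRCm38 annotation (GENCODE M21) the genes lie head to head without overlapping: Hadha (ENSMUSG00000025745) spans chr5:30118304-30155162 on the minus strand and Hadhb (ENSMUSG00000059447) chr5:30155248-30184593 on the plus strand. The 250 bases before their RefSeq starts (GRCm38.p6) share 228 bases, chr5:30155003-30155230, read in opposite directions. By the GENCODE spans, 160 of the shared bases lie inside Hadha, whose RefSeq start is thus internal to that span, and 0 inside Hadhb. The sequence is shown because this stretch holds the RefSeq start windows of both genes, whose ratio differed between the libraries; it is the window before Hadhb, chr5:30155003-30155252 on the plus strand, 5′ to 3′, from RefSeq.
Hadhb: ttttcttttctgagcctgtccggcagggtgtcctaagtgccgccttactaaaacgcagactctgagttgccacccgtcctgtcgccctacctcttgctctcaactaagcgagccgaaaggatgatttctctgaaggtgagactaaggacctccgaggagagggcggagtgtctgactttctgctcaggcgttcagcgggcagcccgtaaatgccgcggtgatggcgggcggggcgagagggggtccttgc
Hadha was at 98.3 CPM (94.9 to 102) in fl/fl cells and 93.3 CPM (89.8 to 97.0) in cKO cells, a log2 ratio of -0.07 (-0.15 to 0.00), and Hadhb at 56.4 CPM (53.9 to 59.1) in fl/fl cells and 64.0 CPM (61.0 to 67.0) in cKO cells. Hadhb thus took 36.5% (35.1 to 37.8) and 40.7% (39.2 to 42.1) of the pair's UMIs in the fl/fl and cKO libraries, and these intervals did not overlap. The share was higher in the cKO library in 9 of 10 clusters, the exception being cluster 11 (40.1% and 39.4%). Only in cluster 1 (33.3% and 40.8%) were the intervals of the libraries apart. The clusters are parts of the same 2 libraries and do not repeat the comparison. It was 36.3% and 41.2% in cells with G2/M genes and 36.7% and 40.1% in cells with neither G2/M nor S genes. Among cells with UMIs of Gm28438 and none of the mitochondrial gene mt-Nd3, the share was 37.4% (34.4 to 40.5) and 41.0% (39.5 to 42.5), with overlapping intervals. The log2 ratio of Hadhb between the libraries was 0.07 in these cells. The split of this pair was looked at after the genes' values were seen, as were the isocitrate dehydrogenase and acyl-CoA synthetase shares below.

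Of 69 further genes of the same pathways, 43 were measured, of which 28 were lower and 15 higher in the cKO library, near the 61.6% of all measured genes that were lower. One was apart by the 25% rule, and lower, where 2.53% of all measured genes were so: Esrra, the nuclear receptor ERR alpha, a regulator of oxidative genes, at 22.6 CPM (21.0 to 24.3) in fl/fl cells and 16.9 CPM (15.4 to 18.5) in cKO cells, a log2 ratio of -0.40 (-0.59 to -0.25). Among regulators of pyruvate dehydrogenase and the pyruvate carriers, 1 of 6 measured genes was lower, and among other TCA cycle and related genes 11 of 14. Among other genes of fatty acid oxidation 10 of 16 were lower, and among transcriptional regulators 6 of 7.

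Within single clusters, the median log2 ratio of the 36 genes lay between -0.11 and 0.08 over the 10 microglia-like clusters. Medians of all measured genes ran from -0.12 (cluster 10) to 0.01 (cluster 4). The 36 genes had the lower median of these in clusters 2, 4, 7 and 11 and the higher one in the others. The libraries also differed in their Gm28438 and mt-Nd3 UMIs: cells with Gm28438 but no mt-Nd3 UMI were most of the cKO microglia-like cells (1705) and a minority of the fl/fl ones (493), where 1205 cells had mt-Nd3 alone. Set against the 493 such fl/fl cells, the cKO median was -0.11, beside -0.06 for all measured genes, and Idh3a (-0.39), Acsl1 (-0.38) and Slc25a20 (-0.48) were apart and lower. Of all measured genes, 9.77% were apart and lower in that comparison and 6.62% apart and higher, so the 3 genes are a share near the background. Against the fl/fl cells with mt-Nd3 alone it was -0.02, beside 0.00 for all measured genes. No gene was apart, where 2.98% of all measured genes were apart and lower and 4.74% apart and higher, and Idh3a was on the other side, at 0.17. Between both kinds of cells inside the fl/fl library the median was 0.09, beside 0.05 for all measured genes, with Idh3a (0.56), Fh1 (0.39) and Slc25a20 (0.33) apart and higher. Here 12.4% of all measured genes were apart and higher and 6.57% apart and lower, so the members' share above did not exceed the background. For Idh3a this difference inside 1 library was thus larger than the one between the genotypes. Idh3g was lower in the cKO library in both comparisons, at -0.14 and -0.23. What sets the 2 kinds of cells apart was not tested.

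More of the 36 genes were apart between states of the cell than between genotypes, but so were more of all measured genes. Between genotypes 2.53% of all measured genes were apart and lower in the cKO library and 3.38% apart and higher. In the G2/M comparison below, 17.9% were higher and 13.1% lower in both libraries. Repopulating microglia divide, and each cell was thinned to 5000 UMIs and called G2/M where at least 3 of 12 G2/M genes were seen, S where at least 3 of 12 S-phase genes but fewer than 3 G2/M genes were seen, and neither otherwise. G2/M cells numbered 796 and 510 in the fl/fl and cKO libraries, and cells with neither 1138 and 1058; 220 and 180 shallower cells were left out. In comparisons of cell groups, above and below are used only of genes apart by the 25% rule in the same direction in both libraries. In G2/M cells 7 of 35 genes were above the cells with neither, close to the 17.9% of all measured genes that were, and 1 was below, where 13.1% of all measured genes were; relative to the median of all measured genes 5 were above and 1 below. The medians were 0.14 and 0.17, beside 0.01 and -0.03 over all measured genes. They were 0.23 and 0.24 for the pyruvate dehydrogenase and TCA cycle genes and 0.00 and 0.09 for the fatty acid genes. With the 36 genes together, the share of UMIs was 0.245 and 0.2495% in G2/M cells and 0.219 and 0.211% in cells with neither.

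The 7 genes were Dlat, Cs, Idh3a, Sdhd, Fh1, Acsl5 and Acadl. Idh3a, the catalytic isocitrate dehydrogenase subunit (ENSMUSG00000032279, chr9:54586334-54604661, plus strand), stood at 43.6 against 24.4 CPM in the fl/fl library and 47.3 against 21.9 CPM in the cKO library. Its log2 ratios were 0.81 (0.64 to 1.04) and 1.08 (0.90 to 1.33), the highest of the 36 in both libraries, while those of its partner subunits were -0.05 and 0.16 for Idh3b and 0.11 and 0.20 for Idh3g. With cells called at 2500 UMIs, which keeps shallower cells, the Idh3a ratios were 0.44 and 0.73. Fumarase, Fh1, stood at 63.2 against 38.5 CPM in the fl/fl library and 69.0 against 36.3 CPM in the cKO library, with ratios of 0.70 (0.55 to 0.87) and 0.91 (0.75 to 1.10). The synthetase Acsl5 was at 107 against 69.1 CPM in the fl/fl library and 110.2 against 70.8 CPM in the cKO library, ratios of 0.62 and 0.63, or 0.35 and 0.55 with the call at 2500 UMIs. The long-chain dehydrogenase Acadl was at 89.0 against 62.4 CPM in the fl/fl library and 99.5 against 60.3 CPM in the cKO library. For each of these genes both G2/M levels lay above both levels of the cells with neither. Sdhd, a membrane anchor of succinate dehydrogenase, had ratios of 0.48 (0.37 to 0.61) and 0.53 (0.41 to 0.66). The gene below was Acads, the short-chain dehydrogenase, at 83.3 against 116 CPM in the fl/fl library and 78.3 against 109.6 CPM in the cKO library, ratios of -0.47 (-0.59 to -0.36) and -0.48 (-0.62 to -0.36). The acyl-CoA dehydrogenases for long and short chains thus stood on opposite sides.

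The windows before Fh1, Acsl5 and Acadl are shown because these genes were higher together in G2/M cells; the RefSeq table used here holds none for Idh3a. They are from RefSeq, GRCm38.p6, 5′ to 3′ on the gene's strand: Fh1 at chr1:175625636-175625885 (minus), Acsl5 at chr19:55253119-55253368 (plus) and Acadl at chr1:66863310-66863559 (minus). The Acsl5 window lies whole inside the GENCODE span of its gene, before the RefSeq start but not before the annotated gene.
Fh1: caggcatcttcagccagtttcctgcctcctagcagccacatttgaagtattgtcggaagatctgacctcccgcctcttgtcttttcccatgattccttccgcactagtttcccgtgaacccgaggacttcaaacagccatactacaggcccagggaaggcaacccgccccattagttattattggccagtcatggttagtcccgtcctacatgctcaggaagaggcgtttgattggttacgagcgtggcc
Acsl5: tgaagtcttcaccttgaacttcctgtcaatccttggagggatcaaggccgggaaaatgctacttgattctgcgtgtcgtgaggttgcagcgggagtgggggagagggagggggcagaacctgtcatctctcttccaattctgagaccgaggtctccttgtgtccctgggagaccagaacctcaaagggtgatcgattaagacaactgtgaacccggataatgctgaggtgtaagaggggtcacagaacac
Acadl: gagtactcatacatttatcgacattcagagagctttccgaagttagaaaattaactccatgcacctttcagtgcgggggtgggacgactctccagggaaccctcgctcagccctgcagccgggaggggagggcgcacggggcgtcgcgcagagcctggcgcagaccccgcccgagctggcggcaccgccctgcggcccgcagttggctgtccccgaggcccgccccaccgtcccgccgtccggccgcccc
None of the 3 motifs searched below occurs in these windows.

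G2/M cells were also deeper and held less of a nuclear transcript: their median UMIs were 13398.5 and 14750, against 9286 and 11894.5, and Malat1 was at 5514 and 4956 CPM against 8240 and 9346. With every cell thinned to 5000 UMIs before summing, the Idh3a ratios were 0.88 and 1.11; the part of Malat1 was not tested. Of the 43 measured related genes, 8 were above in G2/M cells (Pdk3, Mdh1, Idh2, Me2, Got2, Hacd2, Acat1 and Nrf1), near the 17.9% of all measured genes that were. One, Esrra, was below, where 13.1% of all measured genes were. In S cells (318 and 259 cells) 5 of 35 genes were above, Idh3a, Fh1, Mdh2, Acsl5 and Acadl, no larger a share than the 14.4% of all measured genes that were. None was below, against 4.33%, and relative to the median of all measured genes 3 were above and 0 below. With 2 of 12 genes sufficing for the S call, 1 was above. Idh3a was at 45.0 against 24.4 CPM in the fl/fl library and 49.7 against 21.9 CPM in the cKO library, with ratios of 0.86 (0.63 to 1.13) and 1.15 (0.93 to 1.44). Medians were 0.13 and 0.15, beside 0.05 and 0.02 for all measured genes.

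**Figure D2:**
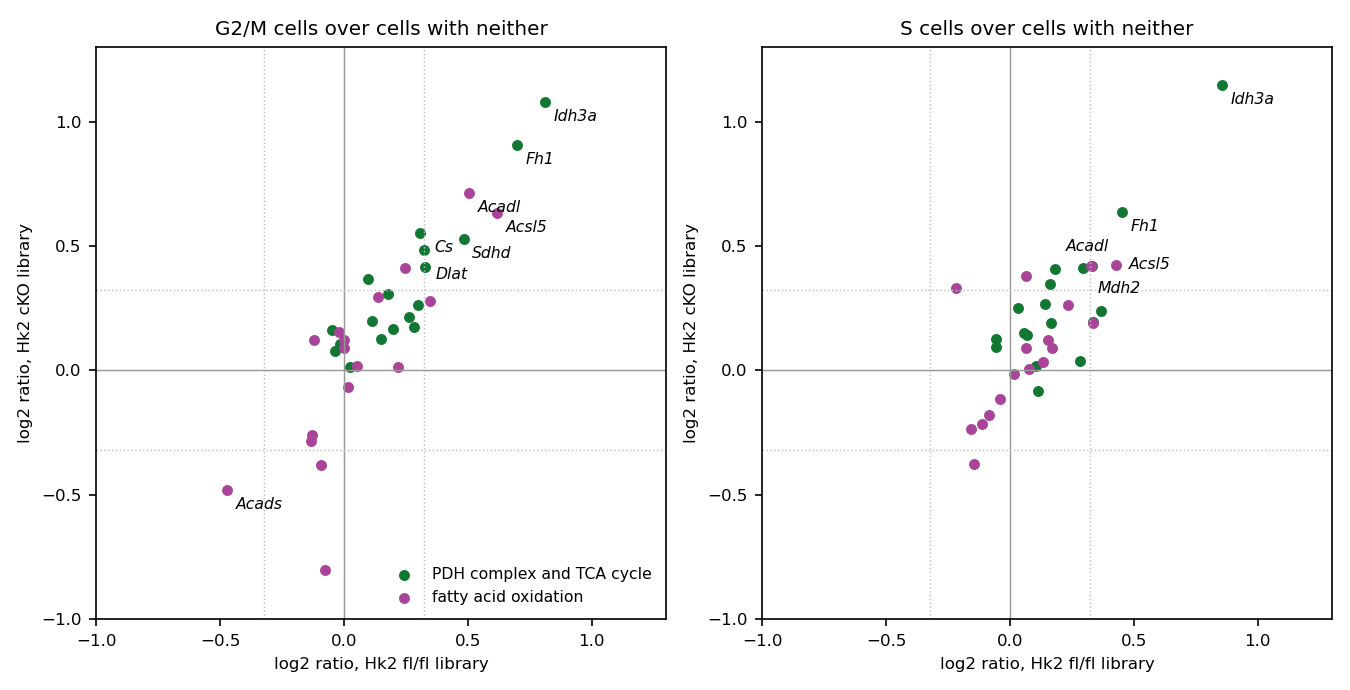
Log2 ratio of each of the 36 genes in G2/M cells (left) and S cells (right) over cells with neither, in the Hk2 fl/fl library (x axis) and the Hk2 cKO library (y axis); each point is 1 gene, coloured by pathway. Idh3a lies farthest to the upper right in both panels, and Acads to the lower left among G2/M cells.

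Across the 10 microglia-like clusters, made without the 36 genes, levels ranged most widely for Slc25a20, Idh3a and Acsl1. Idh3a ran from 14.7 to 71.8 CPM in the fl/fl and from 12.6 to 60.5 CPM in the cKO library, a spread of 4.88 and 4.79-fold. Its partners Idh3b and Idh3g spread 1.41 and 1.42-fold and 1.54 and 1.53-fold. Both trifunctional protein genes were among the steadiest, with Hadha spreading 1.34 and 1.33-fold. Each cluster is set against the other microglia-like cells of its library, and the share of all measured genes is given in brackets beside each count. The counts above and below after taking ratios relative to the median of all measured genes are given as centred counts where they differ. The bracketed shares belong to the ratios before centring. No share of all measured genes was counted after centring, here or in the other comparisons, so centred counts have no background beside them.

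Cluster 11 (520 and 419 cells), led by the immediate-early and stress genes Klf2 and Rrad, had 11 genes below (18.4% of all measured genes) and 3 above (27.3%), so more than the background lay below and fewer above; after centring 15 were below and 2 above. The lower ones were Cs, Idh3a, Suclg1, Sdhc, Sdhd, Fh1, Mdh2, Acsl5, Acadl, Eci1 and Etfb, and the higher ones Dlst, Acsl1 and Slc25a20. Idh3a stood at 18.3 against 38.3 CPM in the fl/fl library and 15.8 against 37.7 CPM in the cKO library, with log2 ratios of -1.02 (-1.42 to -0.72) and -1.20 (-1.64 to -0.90). Acsl5 and Acsl1, which catalyse the same activation step, went opposite ways: Acsl5 was at 52.2 against 93.8 CPM in the fl/fl library and 49.7 against 94.0 CPM in the cKO library, and Acsl1 at 48.5 against 30.8 CPM in the fl/fl library and 41.3 against 26.5 CPM in the cKO library. Slc25a20, the acylcarnitine carrier, was at 31.2 against 18.5 CPM in the fl/fl library and 28.8 against 15.1 CPM in the cKO library, ratios of 0.72 and 0.89. Medians were -0.24 and -0.20 for the 35 genes and 0.09 and 0.13 for all measured genes. These cells were shallow, with median UMIs of 6909.5 and 9874, and Malat1 was at 12403 and 13899 CPM; their part was not tested.

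Cluster 4 (61 and 339 cells), led by the interferon-induced genes Ifit3 and Rsad2, had 6 genes below (15.3%) and 1 above (5.93%), or 2 and 1 after centring. Before centring the share below was near the background. The lower ones were Idh3a, Suclg1, Fh1, Acsl5, Acadl and Etfb. Idh3a was at 14.7 against 36.3 CPM in the fl/fl library and 15.1 against 38.5 CPM in the cKO library, ratios of -1.25 (-2.26 to -0.50) and -1.29 (-1.71 to -1.01), its lowest level of any cluster in the fl/fl library. The higher gene was Cpt1a, the entry step of the carnitine shuttle, at 26.9 against 15.2 CPM in the fl/fl library and 20.6 against 13.9 CPM in the cKO library, ratios of 0.79 (0.14 to 1.44) and 0.54 (0.23 to 0.89). Acsl5 had ratios of -0.76 and -0.58. The cluster was much larger in the cKO library, so its fl/fl values rest on few UMIs, 12 for Idh3a and 22 for Cpt1a. Of the 43 measured related genes 8 were below and none above, beside the same 15.3% and 5.93% of all measured genes.

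Cluster 0 (94 and 113 cells), led by the mitotic genes Pbk and Cdk1, had 14 genes above (17.8%) and 3 below (41.7%), or 20 and 1 after centring. Before centring the share above exceeded the background and that below was under it. The higher ones were Dlat, Idh3a, Idh3g, Suclg1, Sdhb, Sdhd, Fh1, Mdh2, Acadl, Echs1, Acaa2, Eci1, Etfa and Etfb. Fh1 was at 105 against 49.5 CPM in the fl/fl library and 99.8 against 48.1 CPM in the cKO library, ratios of 1.07 (0.76 to 1.39) and 1.04 (0.77 to 1.33). Mdh2, the next enzyme of the cycle after fumarase, was at 285 against 160.3 CPM in the fl/fl library and 248 against 154 CPM in the cKO library. The 3 lower genes were Ogdh, Acsl1 and Cpt1a, and Acsl1 was at 12.5 against 33.5 CPM in the fl/fl library and 11.1 against 29.4 CPM in the cKO library, ratios of -1.35 (-2.43 to -0.57) and -1.33 (-2.33 to -0.63). Medians were 0.30 and 0.33 for the 35 genes, while those of all measured genes were -0.28 and -0.29. Malat1 was at 1126 and 859 CPM, far under the 7160 and 7835 CPM of the other cells, and median UMIs were 8003 and 8274; their part was not tested.

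Cluster 10 (218 and 297 cells), led by mitochondrial ribosomal RNA, had 7 genes above (6.63%) and 6 below (32.7%), or 16 and 1 after centring. The 7 were Idh3a, Idh3b, Sdhb, Sdhd, Mdh2, Echs1 and Etfb, and the 6 were Pdhb, Dlst, Acsl1, Cpt1a, Slc25a20 and Etfdh. Slc25a20 was at 7.80 against 20.9 CPM in the fl/fl library and 6.00 against 18.2 CPM in the cKO library, and Echs1, the enoyl-CoA hydratase, at 109 against 73.3 CPM in the fl/fl library and 116 against 75.8 CPM in the cKO library. The cluster's median UMIs were 7637 and 6855, its mitochondrial share 4.50 and 4.18%, and all measured genes had medians of -0.17 and -0.27; the part of these was not tested.

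Cluster 1 (234 and 264 cells), led by the cytokine genes Il12b and Ccl7, had 4 genes above (6.73%), Pdha1, Idh3a, Suclg1 and Acsl5, and none below (14.1%), or 5 and 0 after centring. Idh3a was at 52.6 against 33.3 CPM in the fl/fl library and 50.4 against 30.5 CPM in the cKO library, ratios of 0.65 (0.45 to 0.87) and 0.70 (0.52 to 0.92). Acsl5 was at 114 against 84.8 CPM in the fl/fl library and 122 against 78.8 CPM in the cKO library. Suclg1, the alpha subunit of succinyl-CoA ligase, had ratios of 0.40 and 0.40. These cells were deep, with median UMIs of 16499 and 19302.5.

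Clusters 6 and 3 were led by other genes of cell division. Cluster 6 (231 and 144 cells), led by Top2a and Mki67, had 4 genes above (17.5%), Idh3a, Fh1, Acadl and Etfdh, and 1 below (7.63%), Acads, or 2 and 2 after centring. Fh1 was at 67.8 against 48.2 CPM in the fl/fl library and 68.9 against 47.9 CPM in the cKO library, and Acads at 68.9 against 105 CPM in the fl/fl library and 59.4 against 99.1 CPM in the cKO library, the directions these genes also had in G2/M cells, many of which may be the same cells. Cluster 3 (260 and 128 cells), led by Ccnb2 and Cenpa, had 2 above (4.75%), Idh3a and Acsl5, and 2 below (8.67%), Acsl1 and Slc25a20. Acsl5 was at 129 against 81.8 CPM in the fl/fl library and 142 against 81.4 CPM in the cKO library, while Acsl1 had ratios of -0.46 and -0.46.

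Cluster 2 (180 and 110 cells), led by Adamts1 and Otud1, had 5 genes above (23.1%), Pdhb, Dld, Dlst, Acsl1 and Slc25a20, and 2 below (7.91%), Fh1 and Etfb, or 2 and 8 after centring. Slc25a20 was at 30.5 against 19.4 CPM in the fl/fl library and 31.3 against 16.4 CPM in the cKO library, and Acsl1 had ratios of 0.67 and 0.52. Dlst, the succinyl-transferring enzyme of the 2-oxoglutarate dehydrogenase complex, was at 119 against 79.1 CPM in the fl/fl library and 106 against 76.2 CPM in the cKO library. Clusters 5 and 7, both with mt-Nd3 among their leading genes and both larger in the fl/fl library, had low Idh3a. Cluster 5 (300 and 108 cells) had 4 genes below (16.6%), Dlat, Dld, Idh3a and Acsl5, and 1 above (5.25%), Acads, or 3 and 1 after centring. Idh3a was at 21.5 against 37.4 CPM in the fl/fl library and 12.6 against 35.6 CPM in the cKO library. Cluster 7 (374 and 85 cells), led by Sdc4 and Mt2, had 2 below (14.2%), Idh3a and Fh1, and none above (2.85%). Its Idh3a was at 21.5 against 38.9 CPM in the fl/fl library and 20.8 against 35.0 CPM in the cKO library.

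**Figure D3:**
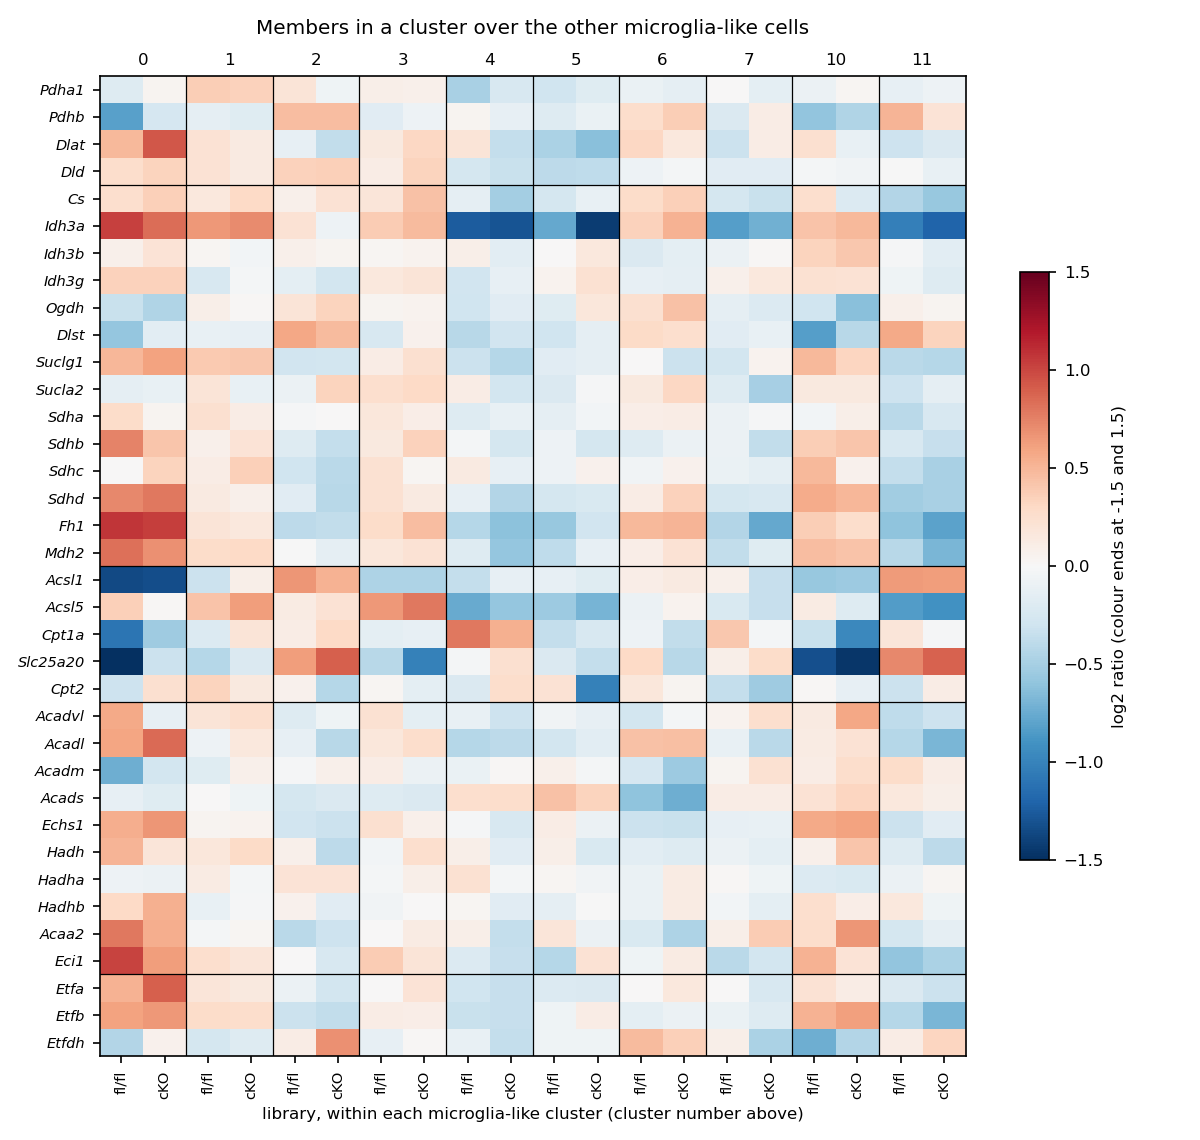
Log2 ratio of each of the 36 genes in a microglia-like cluster over the other microglia-like cells of the same library, for the 10 clusters with at least 50 cells in each library (columns, fl/fl and cKO side by side) and the genes in order of role (rows). Red marks higher and blue lower, with the colour ending at -1.5 and 1.5; the Idh3a row runs from red in clusters 0 and 1 to blue in clusters 4, 5, 7 and 11 in both libraries.

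The isocitrate dehydrogenase subunits did not keep a fixed ratio. Idh3a made up 16.5% (15.7 to 17.4) and 17.0% (16.0 to 17.99) of the UMIs of Idh3a, Idh3b and Idh3g in fl/fl and cKO microglia-like cells, intervals that overlapped. In G2/M cells its share was 19.0% (17.7 to 20.4) and 20.9% (19.2 to 22.7), and in cells with neither 12.0% (10.8 to 13.2) and 12.2% (10.9 to 13.53). By cluster it ran from 8.11% (cluster 4) to 25.2% (cluster 0) in the fl/fl library and from 6.19% (cluster 5) to 23.6% (cluster 6) in the cKO library. It was higher in the cKO library in 5 of 10 clusters, so no genotype was above the other throughout.

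The 2 long-chain acyl-CoA synthetases also shifted against each other between states. Acsl1 (ENSMUSG00000018796) took 27.1% (25.7 to 28.5) and 24.7% (23.2 to 26.2) of the UMIs of Acsl1 and Acsl5 (ENSMUSG00000024981, chr19:55251938-55297720, plus strand) in fl/fl and cKO microglia-like cells. It was lowest in cluster 0, at 10% (5.10 to 17.2) and 11.1% (6.05 to 18.2), and highest in cluster 11, at 48.2% (43.2 to 53.1) and 45.3% (40.3 to 50.5), in both libraries. In neutrophil-like cells Acsl1 was the main one of the pair, at 66.5% (58.9 to 73.5) and 72.3% (65.7 to 78.3).

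**Figure D4:**
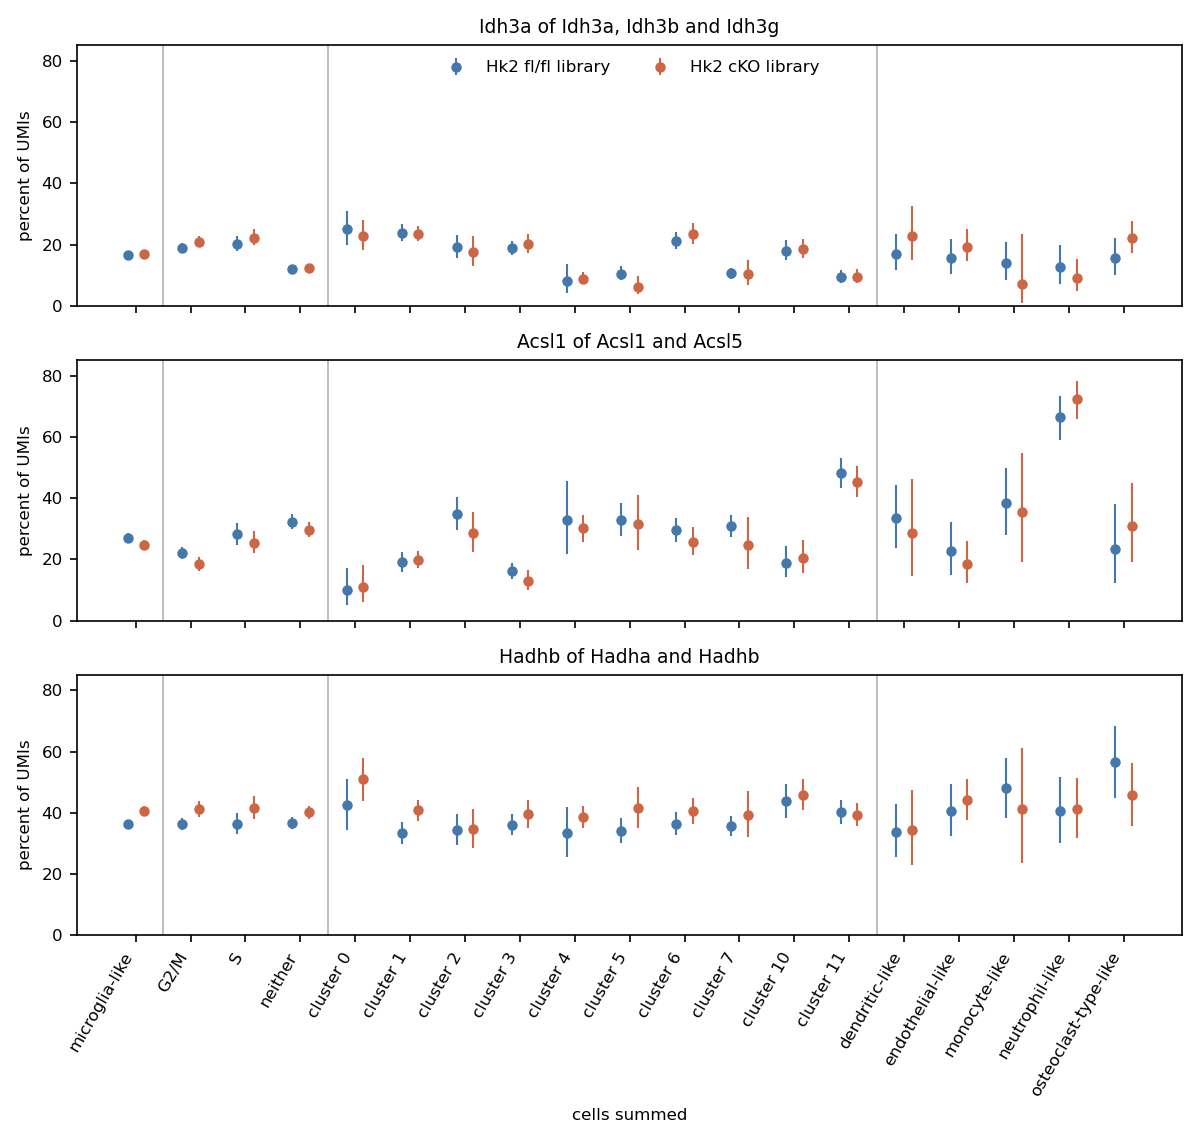
Percent of UMIs taken by Idh3a among Idh3a, Idh3b and Idh3g, by Acsl1 among Acsl1 and Acsl5, and by Hadhb among Hadha and Hadhb (y axes, from 0) in the summed cells named on the x axis, for both libraries, with exact 95% Clopper-Pearson intervals. The Idh3a and Acsl1 shares move with cell state in both libraries, while the Hadhb share is higher in the cKO library in 9 of 10 clusters. Among the clusters, only in cluster 1 are the Hadhb intervals of the libraries apart.

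Cells outside the microglia-like clusters were compared with microglia-like cells of the same library where a class had at least 15 cells in each. Neutrophil-like cells (82 and 89) had 25 of 35 genes below, beside 58.6% of all measured genes, and 2 above, beside 6.04%. Their medians of -0.46 and -0.68 were close to those of all measured genes, -0.52 and -0.68, and relative to that median 5 genes stood above and 3 below. The 2 higher genes were Acsl1, at 117 against 33.0 CPM in the fl/fl library and 120.1 against 28.7 CPM in the cKO library, ratios of 1.80 (1.54 to 2.11) and 2.03 (1.80 to 2.32), and the carrier Slc25a20. Hadh was at 12.2 against 37.0 CPM in the fl/fl library and 10.5 against 34.5 CPM in the cKO library. The 36 genes took 0.178 and 0.159% of UMIs, the lowest of the classes. The 4 microglial genes P2ry12, Tmem119, Siglech and Fcrls summed to 1242 and 1201 CPM in these cells, against 2698 and 2752 CPM in microglia-like cells, so microglial RNA was present and its part was not tested.

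Osteoclast-type-like cells (16 and 23), named for Ctsk and Acp5, had 16 of 35 genes above (17.1%) and none below (27.7%), a larger share above than in the background. After centring the counts were 19 and 0. These 16 were all 4 pyruvate dehydrogenase genes (Pdha1, Pdhb, Dlat and Dld), Cs, Idh3a, Idh3b, Idh3g, Suclg1, Sdha, Sdhb, Sdhc, Sdhd, Mdh2, Acadvl and Acaa2. Medians were 0.72 and 0.87 for the pyruvate dehydrogenase and TCA cycle genes and 0.06 and 0.29 for the fatty acid genes, beside -0.12 and -0.13 for all measured genes. Sdhb was at 308 against 156 CPM in the fl/fl library and 423 against 168 CPM in the cKO library, ratios of 0.97 (0.71 to 1.23) and 1.33 (1.14 to 1.52). Idh3b was at 147 against 73.5 CPM in the fl/fl library and 159 against 74.4 CPM in the cKO library. Here all 3 isocitrate dehydrogenase subunits stood above microglia-like cells, and the 36 genes took 0.326 and 0.389% of UMIs, the highest share of the classes. The cells are few and deep, with median UMIs of 24851 and 21693. Ribosomal protein genes took 20.8 and 23.5% of their UMIs, against 15.5 and 15.1% in microglia-like cells, and mitochondrial genes 4.14 and 4.20% against 3.14 and 2.97%. The 4 microglial genes summed to 928 and 559.7 CPM; the part of these was not tested.

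Monocyte-like cells (79 and 34) had 4 genes above (12.2%), Pdha1, Acsl1, Cpt1a and Acaa2, and 7 below (31.3%), Idh3a, Idh3b, Sdha, Acadl, Acads, Hadha and Eci1, or 8 and 3 after centring. Acaa2, the thiolase that ends a round of beta-oxidation, was at 113 against 34.5 CPM in the fl/fl library and 123 against 34.3 CPM in the cKO library, ratios of 1.69 (1.38 to 2.03) and 1.82 (1.27 to 2.37). Cpt1a was at 49.4 against 15.5 CPM in the fl/fl library and 74.0 against 15.03 CPM in the cKO library. Idh3a rested on 19 fl/fl and 2 cKO UMIs, with ratios of -0.52 (-1.27 to 0.11) and -1.94 (-5.11 to -0.21), and the first of these intervals reaches above 0. The summed microglial genes were at 1083 and 65.8 CPM in the 2 libraries, so the fl/fl monocyte-like cells held far more microglial RNA; its part was not tested.

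Dendritic-like cells (54 and 36) had 1 gene above (7.4%), Cpt1a, and 5 below (19.7%), Acsl5, Acadm, Acads, Hadh and Etfdh. After centring the counts were 3 and 4. All 6 named genes belong to fatty acid oxidation, but neither count before centring was a larger share than in the background. Medians were -0.18 and -0.265 for the fatty acid genes and -0.20 and -0.12 for the pyruvate dehydrogenase and TCA cycle genes, beside -0.14 and -0.17 for all measured genes. Cpt1a was at 27.0 against 15.5 CPM in the fl/fl library and 29.8 against 15.03 CPM in the cKO library, from 25 and 15 UMIs. In the 13 fl/fl and 15 cKO dendritic-like cells with no UMI of the 4 microglial genes, 13 of the 35 genes were below and Cpt1a had 0 fl/fl UMIs, so its direction did not hold there. These cells held only 97509 and 139933 UMIs in all. Endothelial-like cells (55 and 95) had none above (8.99%) and none below (9.86%), or 1 and 0 after centring. In the 7 and 19 of them with no UMI of the 4 microglial genes, which held 22500 and 81288 UMIs in all, 8 were above and 5 below. For the cells of either class with no UMI of the 4 microglial genes, no share of all measured genes was counted. Their counts thus have no background and rest on few UMIs. Acadvl, the very-long-chain dehydrogenase, was at 47.9 against 33.0 CPM in the fl/fl library and 42.9 against 34.3 CPM in the cKO library. In the dendritic-like and the endothelial-like cells the summed microglial genes were at 1285 and 1029 CPM and 1915 and 1855 CPM, and their part was not tested.

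**Figure D5:**
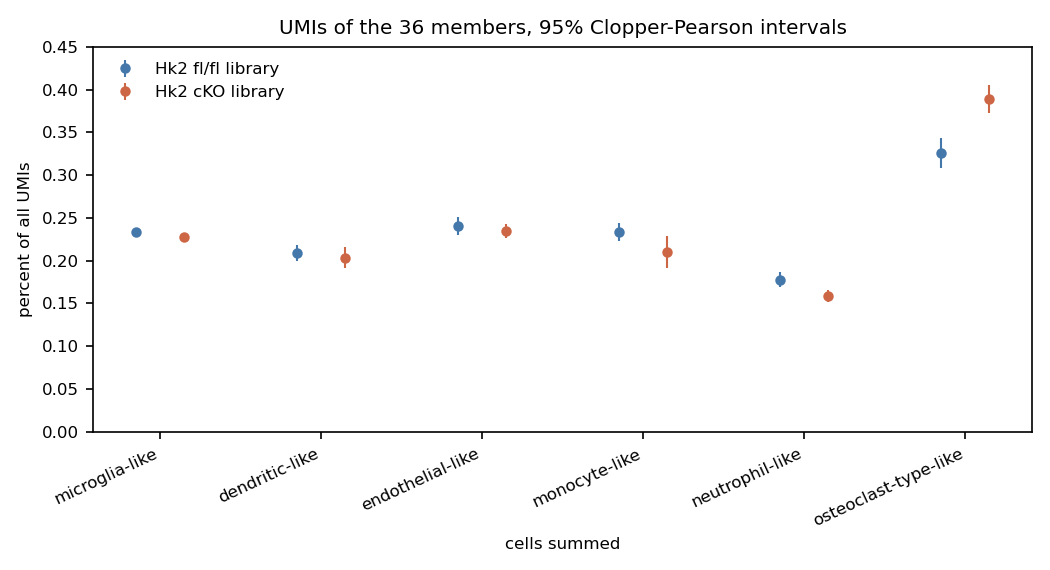
Percent of all UMIs that fell on the 36 genes (y axis, from 0) in microglia-like cells and 5 other classes (x axis), for both libraries, with exact 95% Clopper-Pearson intervals of counting error. Osteoclast-type-like cells were highest, at 0.326 and 0.389%, and neutrophil-like cells lowest, at 0.178 and 0.159%.

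RefSeq start windows (250 bases before to 50 after the start, GRCm38.p6) were found for 33 of the 36 genes; Idh3a, Sdhc and Acaa2 had none. They were searched on both strands for a motif of NRF1, a regulator of nuclear genes for mitochondrial proteins (GCGCATGCG), a motif of GABPA, an ETS factor (ACCGGAAGT), and the extended site of the ERR receptors (TCAAGGTCA). The NRF1 letters were in the windows of Acadm, Etfdh and Ogdh, 9.09% of the 33, against 1.95% of all genes with a window. Ogdh had several windows, and those with the letters lie inside the GENCODE span of the gene. The GABPA letters were in 1 window, that of Dlst (3.03% against 1.21%), and the ERR letters in 1, that of Sdhd (3.03% against 0.466%). The windows before Etfdh (chr3:79628768-79629017, minus strand) and Acadm (chr3:153944644-153944893, minus strand) are shown, 5′ to 3′, as the fatty acid genes with the NRF1 letters, which are in capitals; in Etfdh a match on each strand overlaps the other. The Etfdh window too lies inside the GENCODE span of its gene.
Etfdh: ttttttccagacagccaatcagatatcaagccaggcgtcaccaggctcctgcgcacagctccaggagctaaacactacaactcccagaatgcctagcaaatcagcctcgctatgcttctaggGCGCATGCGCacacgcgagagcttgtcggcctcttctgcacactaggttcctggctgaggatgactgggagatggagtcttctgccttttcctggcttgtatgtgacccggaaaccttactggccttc
Acadm: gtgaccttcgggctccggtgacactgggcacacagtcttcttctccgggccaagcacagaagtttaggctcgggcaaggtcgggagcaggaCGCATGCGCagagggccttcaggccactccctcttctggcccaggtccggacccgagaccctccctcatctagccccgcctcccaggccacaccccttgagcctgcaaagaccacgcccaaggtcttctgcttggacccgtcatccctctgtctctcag
The match begins 128 bases before the RefSeq start of Etfdh and 159 before that of Acadm. In microglia-like cells Etfdh was at 17.3 CPM (15.9 to 18.7) in fl/fl cells and 14.7 CPM (13.3 to 16.2) in cKO cells, and Acadm, the medium-chain dehydrogenase, at 64.4 CPM (61.7 to 67.2) in fl/fl cells and 62.7 CPM (59.8 to 65.7) in cKO cells. Both intervals overlapped between the libraries.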

How the data were processed

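The deposited matrices hold unnormalised UMI counts for each gene in each barcode, made with bcl2fastq and Cell Ranger 3.1.0 on GRCm38, per the submitters' processing notes; how barcodes were filtered before that is not stated. All 55450 identifiers matched GENCODE M21, which gave coordinates. Cells needed 500 detected genes or more and a mitochondrial share of 10% or less. Scrublet scores marked 2 and 1 cells, too few to be a working doublet call, so doublets remained, and removing the highest scores was an alternative. Clusters came from scanpy 1.11.5 (Leiden, resolution 0.8, 30 principal components, 2000 variable genes, without the 36 genes and 69 related ones). Cells of a group were summed per library and scaled to CPM, and log2 ratios added 1 CPM. No test was possible with a single library of each genotype; intervals are exact Poisson, Clopper-Pearson or conditional binomial at 95%, and cover counting error only. Scripts were tested on simulated counts. TMM factors came from edgeR 4.0.16 and size factors from DESeq2 1.42.0, as alternatives. The 36 genes, the lists and the thresholds for naming classes were chosen with earlier results of these data known. Named genes are, per role, the most abundant and those with the highest and lowest genotype ratio, and per other comparison up to 6 with the largest ratio in 1 direction in both libraries; Idh3b, Idh3g, Slc25a20, Acsl1 and others named beside these were chosen after their values were seen. Cells named after other types rest on rebuilt clusters, not on an annotation by the authors.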

Additional observations from a re-analysis of the deposited data

How the results depend on the processing

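The genotype median of the 36 genes stayed below 0 under all 17 alternatives, from -0.11 to -0.02. The all-gene median was itself below 0, at -0.04 as reported. It was -0.06 in the alternative with the lowest value, Gm28438 alone in both libraries. In the one with the highest, where the fl/fl side had mt-Nd3 alone, it was -0.0046. In these comparisons a median below 0 thus does not set the 36 genes apart from the background. With a mean of at least 50 CPM required, 15 of the 23 measured genes were lower in the cKO library. At that level no share of all measured genes was counted, while at 10 CPM it was 61.6%. The number apart by the 25% rule was 1 among cells with neither G2/M nor S genes and 3 between cells of both libraries with Gm28438 alone. In the latter 9.77% of all measured genes were apart and lower and 6.62% apart and higher, and for the cells with neither no such share was counted. The summed share of the 36 genes differed in the cKO library by -2.29% of its fl/fl value as reported, -3.82% among cells with neither, -6.34% among cells with Gm28438 alone, and -0.328% when the fl/fl side was the cells with mt-Nd3 alone. G2/M counts were 5 to 9 above and 1 below over 10 alternatives. The S count above was 3 with 5 CPM added, without mitochondrial and ribosomal protein genes, after centring and with TMM scaling, and 1 when 2 of 12 genes sufficed; with 5 of 12 required, 1 gene was below. Other clustering resolutions gave up to 12 to 14 genes above and 14 to 15 below in a cluster. For those clusters, and for the G2/M and S alternatives, no share of all measured genes was counted. Centring on the median of all measured genes, added after the data were seen, gave 1 below in cluster 0, 2 above and 8 below in cluster 2, 2 below in cluster 4, 2 above and 2 below in cluster 6, and 16 above and 1 below in cluster 10. In the classes centring gave 3 above in dendritic-like, 1 above in endothelial-like, 8 above and 3 below in monocyte-like, and 5 above and 3 below in neutrophil-like cells, whose medians became 0.0657 and 0.00196. No share of all measured genes was counted after centring. Without mitochondrial and ribosomal protein genes 1 gene was above in endothelial-like and 1 in neutrophil-like cells. In class cells with no UMI of the 4 microglial genes, of which some classes held fewer than 20, 13 genes were below in dendritic-like cells, 8 were above and 5 below in endothelial-like cells, and the neutrophil-like medians were -1.72 and -1.44. No share of all measured genes was counted in these cells, and the cause was not tested. Cpt1a in fl/fl dendritic-like cells changed sign there (-4.04), with 0 UMIs in those cells. Of the log2 ratios of named genes under all alternatives, 618 moved by less than their counting interval, 70 by more, and 1, past the 25% mark as reported, changed sign. Counting ratios on either side of that mark, 14 of 689 had the sign opposite to the reported one. Among the 13 genotype ratios of named genes this was so in at least 1 alternative for 5: Acsl5 (6 of 17 alternatives), Dld, Sdhb, Acads and Etfa. No paired analysis was possible because each genotype has 1 library. In the classes many genes rest on few UMIs.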
